A study of Mus musculus with 45 samples.

Results

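The effect of 16 weeks of Western diet on gene expression was examined in adipocytes of 17 female mice. They comprised 7 mice fed Western diet whose arrays passed a limit on the range of their signals and all 10 mice fed chow for 16 weeks, out of 45 mice in the series. D mice (IR+/- IRS1+/- ApoE-/-) had lost 1 copy each of the genes for the insulin receptor and insulin receptor substrate 1, and E mice (ApoE-/-) kept both copies. All were C57BL/6, all lacked ApoE, and the diets, chow or a Western diet rich in milk fat, sucrose and cholesterol, started at 8 weeks of age, so that the mice were 24 weeks old at the end. The 7 mice on Western diet were DW16 mice 8 and 9 and EW16 mice 4 to 8, and the chow groups DC16 and EC16 held 5 mice each. Adipocytes were isolated from parametrial and periovarian fat of random-fed mice, and RNA of each mouse was hybridised to 1 Affymetrix array with 45037 probe sets, given as log2 values. The mutations are germline, so every cell of the mouse carried them, and no mouse of these groups had a working ApoE gene.

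The Western arrays were selected on their own measured values. An array was kept where its 95th percentile was 10.9 or more on the log2 scale. The 7 arrays kept ranged from 10.99 to 11.08, the lowest being DW16 mouse 9, and the nearest array outside the limit was DW16 mouse 1 at 10.85. The 10 Western arrays not kept ranged from 10.14 to 10.85. The 10 chow arrays ranged from 10.97 to 11.14, and no chow array was removed. The limit was drawn with values of these mice known and uses the same arrays that are compared here, so these ranges are a description and no test was made of them. The design does not say how the mice of one group came to differ in this way, and neither the labels nor the methods name a hybridisation batch.

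Adipocytes store triglyceride and free cholesterol, and a Western diet delivers both. Cholesterol loading produces oxysterols that activate the liver X receptors (LXR), nuclear receptors whose targets export cholesterol or move it between membranes. The aryl hydrocarbon receptor (AhR) and NRF2 are sensors of foreign chemicals and of electrophiles, respectively, with Cyp1a1 and Hmox1 among their best known targets. Insulin acts on adipocytes through its receptor and the insulin receptor substrates to raise glucose uptake and fat synthesis.

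**Figure D1:**
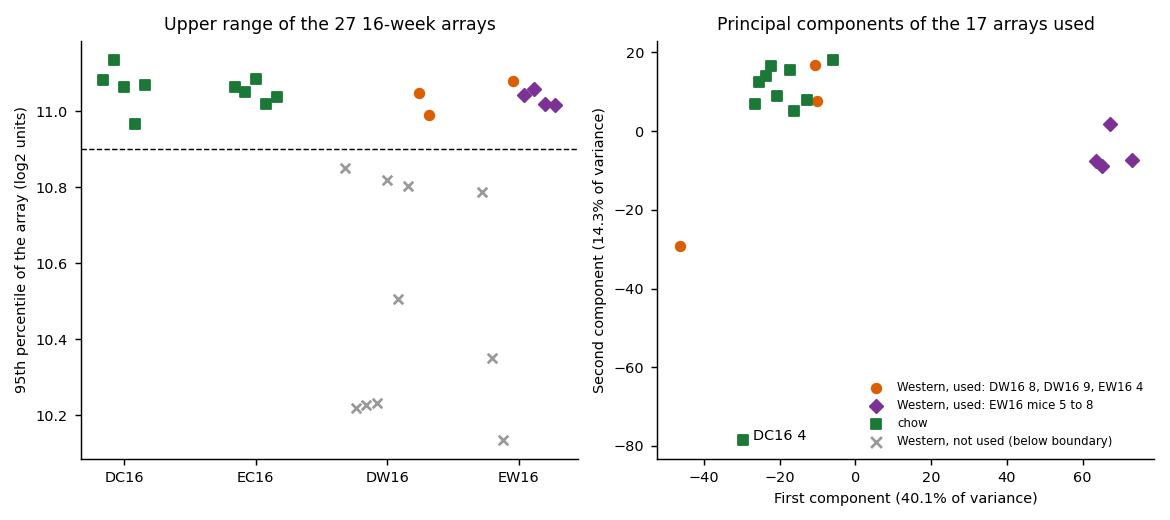
Left, 95th percentile of the deposited log2 values for each of the 27 16-week arrays by group, with the limit (boundary) of 10.9 as a dashed line; right, the first and second principal components of the 17 arrays used. EW16 mice 5 to 8 lie between 63.4 and 73.0 on the first component and DC16 mouse 4 lies at -78.4 on the second.

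The 7 Western arrays were not alike. EW16 mice 5 to 8 stood apart on the first principal component of the 17 arrays, which held 40.1% of the variance, with scores of 63.4 to 73.0, whereas DW16 mice 8 and 9, EW16 mouse 4 and the 10 chow mice lay between -46.5 and -5.98. DC16 mouse 4 stood apart on the second component, with a score of -78.4. Values without these 4 mice are given beside many of the results below. Insr, the insulin receptor gene, lay between 8.82 and 9.54 in the DC16 mice and between 10.01 and 10.34 in the EC16 mice, with the lower levels in the mice that had lost 1 copy, whereas Irs1 overlapped between DC16 mice (10.53 to 11.35) and EC16 mice (10.82 to 11.56). The position of these probe sets relative to the disrupted parts of Irs1 and Apoe was not analysed here. Adipoq, which encodes adiponectin, was between 14.49 and 14.61 in the Western arrays and between 14.53 and 14.60 in the chow arrays, and the fatty acid binding protein Fabp4 was between 14.50 and 14.78 and between 14.64 and 14.78, so that both defining markers of adipocytes lay far above the 95th percentile of every array.

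The cholesterol transport genes Abcg1 and Gramd1b were among those that rose with Western diet, and the detoxification and stress genes Cyp1a1, Hmox1, Gclm and Srxn1 were among those that fell. In a LIMMA fit with diet and genotype, 149 probe sets were higher on Western diet at an adjusted p under 0.01, which is 0.331% of those tested, and 359 were lower, which is 0.797%. At the level of genes, with 1 probe set for each of 18193 genes, 65 were higher (0.357%) and 202 were lower (1.11%). At least 2-fold differences were seen for 15 of the probe sets called higher and 47 of those called lower. The share called higher, 29.3%, became 41.5% when the 17 arrays were quantile normalized again, 18.2% when each array was centred on its median and 42.5% with the SD of each array in the fit. The levels of the 7 Western and the 10 chow mice did not overlap for 85 probe sets with Western higher (0.189%) and 179 with Western lower (0.397%).

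The number of calls rested strongly on single mice. Without EW16 mice 5 to 8, with 3 Western arrays left, 56 probe sets were called, 33 higher and 23 lower, and 17 of the 56 were among the 508 called with all 7 arrays. The median difference of the probe sets called higher was 0.59 with the 7 arrays and 0.45 with these 3, and that of the probe sets called lower was -0.65 and -0.48. Leaving out DW16 mouse 9 gave 2370 calls, EW16 mouse 4 gave 1384 and DC16 mouse 4 gave 861. Leaving out DW16 mouse 8 gave 248 calls, and leaving out EW16 mice 5, 6, 7 and 8 one at a time gave 154, 183, 171 and 196. Of the other chow mice, leaving out DC16 mice 2, 3 and 5 gave 334, 323 and 278 calls, and leaving out EC16 mice 1 to 4 gave 178, 204, 122 and 204. Leaving out DC16 mouse 1 or EC16 mouse 5 gave 527 and 339 calls.

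**Figure D2:**
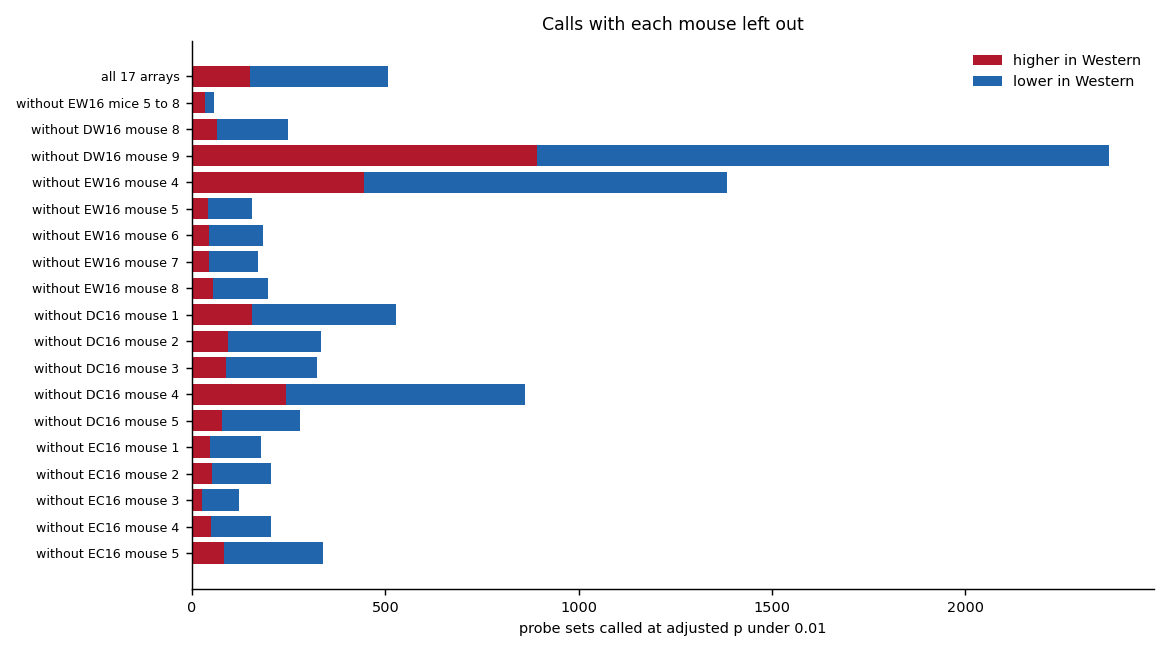
Number of probe sets called at an adjusted p under 0.01 (horizontal axis) with all 17 arrays and with the mouse or mice named on the vertical axis left out, split into those higher and lower on Western diet. The count was 508 with all arrays, 56 without EW16 mice 5 to 8 and 2370 without DW16 mouse 9.

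Abcg1, Gramd1b and Lpcat3, of the list of LXR targets and cholesterol transport, rose on Western diet. Abcg1, a transporter that hands cholesterol to high-density lipoprotein, had log2 levels of 10.77 to 11.61 (median 11.20) in the 7 Western mice and of 9.56 to 10.31 (median 9.74) in the 10 chow mice. The lowest Western mouse was above the highest chow mouse. The difference was 1.35 ± 0.11 (SE), a 2.55-fold increase, with an adjusted p of 3.14e-05, and it was 1.25 with an adjusted p of 0.00243 without EW16 mice 5 to 8. A second probe set of Abcg1 rose by 0.70 ± 0.13 (SE, adjusted p = 0.00635).

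Gramd1b, which carries cholesterol from the plasma membrane to the endoplasmic reticulum, lay between 8.00 and 9.42 (median 8.44) on Western diet and between 7.21 and 8.27 (median 7.68) on chow. The groups overlapped through EW16 mouse 8, the lowest Western mouse, and DC16 mouse 1, the highest chow mouse. The increase was 0.97 ± 0.15 (SE, adjusted p = 0.00308), and a second probe set rose by 1.11 ± 0.21 (adjusted p = 0.00816). Lpcat3, an LXR target that remodels membrane phospholipids, was between 11.80 and 12.19 on Western diet and between 11.16 and 11.79 on chow, with no overlap and a difference of 0.49 ± 0.09 (SE, adjusted p = 0.00476). Without EW16 mice 5 to 8 the difference of Gramd1b was 1.16 (adjusted p = 0.0196) and that of Lpcat3 was 0.43 (adjusted p = 0.113).

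Abcg1, Gramd1b and Lpcat3 were the 3 of 15 measured members of the LXR list that passed the test, all higher, and none was lower. The median difference over the list was 0.06, against 0.03 for all genes. Abca1, which exports cholesterol to apolipoprotein A-I, differed by 0.30 ± 0.09 (SE, adjusted p = 0.0503), and Scarb1, a lipoprotein receptor, by 0.35 ± 0.11 (adjusted p = 0.0599). Npc1, which moves cholesterol out of lysosomes, differed in the other direction, by -0.73 ± 0.15 (SE, adjusted p = 0.0109). Srebf1, an LXR target that drives fat synthesis, differed by 0.00 ± 0.17 (SE).

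The genes with the largest decreases include targets of AhR and NRF2. Cyp1a1, a cytochrome P450 that oxidises aromatic compounds, lay between 6.08 and 10.36 (median 7.36) in the Western mice and between 10.34 and 11.49 (median 10.69) in the chow mice. Of the Western mice only DW16 mouse 8, at 10.36, reached the chow range, and the next was DW16 mouse 9 at 8.40. The difference was -2.76 ± 0.37 (SE, adjusted p = 0.00128), a 6.78-fold lower level, and -1.80 without EW16 mice 5 to 8 (adjusted p = 0.0234).

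Hmox1, the enzyme that breaks down heme, was between 9.12 and 10.36 (median 9.53) on Western diet and between 10.83 and 11.91 (median 11.25) on chow. No Western mouse reached the chow range, and DW16 mouse 9 came nearest. The difference was -1.73 ± 0.18 (SE, adjusted p = 1.37e-04), a 3.31-fold lower level, and -1.43 without EW16 mice 5 to 8 (adjusted p = 0.0108). Gclm, a subunit of the enzyme that starts glutathione synthesis, ranged from 8.97 to 10.99 on Western diet and from 10.46 to 11.80 on chow, with a difference of -1.12 ± 0.22 (SE, adjusted p = 0.00827). Srxn1, which repairs oxidised peroxiredoxins, ranged from 10.31 to 10.81 and from 10.58 to 11.93, with a difference of -0.80 ± 0.14 (adjusted p = 0.00446). Without EW16 mice 5 to 8 the difference of Gclm was -0.63 (adjusted p = 0.268) and that of Srxn1 was -0.79 (adjusted p = 0.0768). With all 7 arrays, the other probe set of Gclm differed by -0.38 (adjusted p = 0.14). The other probe sets of Srxn1 differed by -0.83, -1.08 and -0.87 (adjusted p = 0.00464, 0.00088 and 0.00204).

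These 4 were the members of the AhR and NRF2 list called lower, of 20 measured, and none was called higher. The median difference over the list was -0.04, near that of all genes. Cyp1b1, another AhR target, differed by 0.20 ± 0.18 (SE), Ahrr, which encodes the AhR repressor, by 0.27 ± 0.09 (adjusted p = 0.0783), and Nqo1, a quinone reductase under NRF2, by 0.01 ± 0.16 (SE). The glutathione reductase Gsr differed by 0.57 ± 0.16 (SE, adjusted p = 0.0465), against the direction of Gclm and Srxn1.

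The start regions of Cyp1a1, Gclm and Srxn1 are shown because these genes fell together; of the 4 genes, 3 had an entry in the RefSeq promoter table. Each run is 300 bases of GRCm38.p6, from 250 bases before to 50 bases after the annotated start, on the plus strand, at chr9:57697363-57697662 for Cyp1a1, chr3:122245307-122245606 for Gclm and chr2:152105274-152105573 for Srxn1. Capitals mark matches on either strand to the AhR core motif GCGTG and to TGACNNNGC, a form of the NRF2 element, and no matches of the 2 motifs overlap.
Cyp1a1: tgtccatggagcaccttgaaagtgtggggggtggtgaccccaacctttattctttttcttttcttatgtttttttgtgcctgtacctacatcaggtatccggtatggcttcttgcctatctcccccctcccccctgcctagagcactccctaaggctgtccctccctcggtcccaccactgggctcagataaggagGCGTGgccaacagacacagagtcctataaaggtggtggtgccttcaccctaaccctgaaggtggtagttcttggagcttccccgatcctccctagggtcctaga
Gclm: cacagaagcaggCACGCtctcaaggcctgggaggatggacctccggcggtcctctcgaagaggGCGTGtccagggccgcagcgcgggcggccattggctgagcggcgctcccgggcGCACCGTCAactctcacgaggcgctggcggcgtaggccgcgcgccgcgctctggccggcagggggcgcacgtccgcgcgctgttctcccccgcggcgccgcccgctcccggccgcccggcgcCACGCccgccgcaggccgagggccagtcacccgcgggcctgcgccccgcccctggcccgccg
Srxn1: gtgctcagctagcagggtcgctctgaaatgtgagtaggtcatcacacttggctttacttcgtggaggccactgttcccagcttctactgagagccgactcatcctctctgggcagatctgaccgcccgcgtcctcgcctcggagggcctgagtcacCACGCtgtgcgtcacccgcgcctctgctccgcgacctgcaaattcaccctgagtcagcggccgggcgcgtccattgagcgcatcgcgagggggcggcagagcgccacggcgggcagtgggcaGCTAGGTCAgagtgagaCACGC
The AhR core was found once in Cyp1a1, at position -54 from the start, and it occurs in 32.4% of all 32851 promoters of this length. Gclm held 3 matches and Srxn1 held 2. The second motif occurs in 12.4% of promoters and was found once in Gclm and once in Srxn1. A match describes the letters of the window, and binding was not measured.

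**Figure D3:**
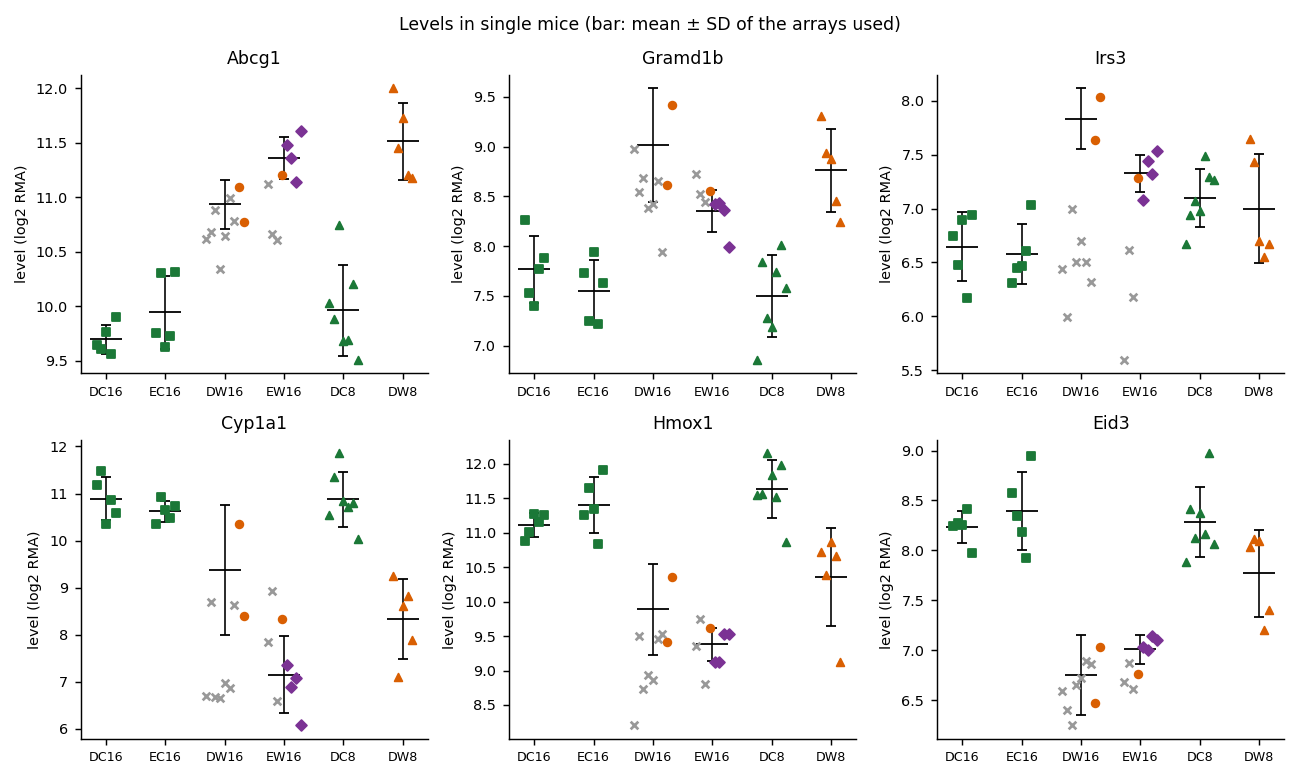
Log2 RMA levels of 6 genes in single mice, by group on the horizontal axis. Squares are chow mice at 16 weeks, circles DW16 mice 8 and 9 and EW16 mouse 4, diamonds EW16 mice 5 to 8, grey crosses Western arrays below the limit, and triangles the 8-week mice; bars give the mean ± SD of the mice used, 2 for DW16 and 5 for EW16. Abcg1, Hmox1 and Eid3 separate all Western from all chow mice used at 16 weeks, and Irs3 does so only in the 7 arrays above the limit.

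Genes of fat synthesis and storage did not pass the test as measured by their brightest probe set. No member of the de novo lipogenesis list (20 measured), the cholesterol synthesis and uptake list (21) or the adipocyte identity and lipid storage list (24) passed the test in either direction, and their median differences were -0.02, -0.10 and -0.07. Fasn, the fatty acid synthase, differed by -0.04 ± 0.14 (SE), Acaca by -0.11 ± 0.18 and Scd1, the main stearoyl-CoA desaturase, by 0.07 ± 0.04. The smallest p of the lipogenesis list were those of the desaturases Fads2, with a difference of 0.55 ± 0.15 (SE, adjusted p = 0.0364), Scd2, described below, and Fads1, with 0.30 ± 0.11 (adjusted p = 0.0918). In the cholesterol list Sc5d, a late enzyme of the pathway, differed by 0.60 ± 0.14 (SE, adjusted p = 0.0187), while Msmo1 and Mvk differed by -0.55 and -0.41. Lep, the gene for leptin, differed by 1.04 ± 0.29 (SE, adjusted p = 0.0379), the hormone-sensitive lipase Lipe by -0.71 ± 0.19 (adjusted p = 0.0316) and Rbp4 by -0.35 ± 0.09 (adjusted p = 0.0333). The differences of Lep, Lipe and Rbp4 were 0.51, -0.40 and -0.11 without EW16 mice 5 to 8.

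Probe sets of several genes of lipid handling rose. Scd2, a second stearoyl-CoA desaturase, was between 7.08 and 8.72 (median 7.22) on Western diet and between 4.40 and 7.03 (median 6.60) on chow for the probe set with the smallest p. Its groups did not overlap, and the difference was 1.63 ± 0.30 (SE, adjusted p = 0.00698). The probe set of Scd2 with the highest signal gave 0.96 ± 0.34 (SE, adjusted p = 0.0876) with overlapping groups, and another gave 1.52 ± 0.47 (adjusted p = 0.0592). Acsl3, an acyl-CoA synthetase of lipid droplets, rose by 1.12 ± 0.17 (SE, adjusted p = 0.00245), and its other probe sets rose by 0.94 and 0.77 (adjusted p = 0.00543 and 0.00946). Hpgd, which inactivates prostaglandins, rose by 1.22 ± 0.21 (SE, adjusted p = 0.00504), and Atp10a, a phospholipid flippase, by 1.12 ± 0.18 (adjusted p = 0.00342). Another probe set of Hpgd differed by 0.57 (adjusted p = 0.0381). Another of Atp10a rose by 0.85 (adjusted p = 0.00543), and its remaining ones differed by 0.25 and 0.18 and were not called. Cavin1, a coat protein of caveolae, rose by 1.10 ± 0.18 (SE, adjusted p = 0.00314), but its other probe sets differed by 0.45 and -0.32 and neither passed the test. Without EW16 mice 5 to 8 the differences were 1.99 for Scd2, 0.92 for Acsl3, 1.08 for Hpgd, 1.04 for Atp10a and 0.82 for Cavin1, and none was called.

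In the insulin signaling list, Irs3 was the only one of 30 measured members that passed the test. Irs3 encodes an insulin receptor substrate found in rodent adipocytes. Its level was between 7.08 and 8.03 (median 7.44) in the Western mice and between 6.17 and 7.03 (median 6.54) in the chow mice, with no overlap. The DW16 mice had the highest levels, 7.63 and 8.03. The increase was 0.91 ± 0.13 (SE, adjusted p = 0.00191), and 1.01 without EW16 mice 5 to 8 (adjusted p = 0.0209). The 10 Western arrays below the limit held Irs3 levels of 5.60 to 7.00, within or below the chow range, and the 8-week mice gave a difference of -0.10 ± 0.19 (SE, adjusted p = 0.845). The list median was 0.02. Akt1s1, a subunit of the mTOR complex, differed by -0.45 ± 0.11 (SE, adjusted p = 0.0238), Akt1 by -0.47 ± 0.15 (adjusted p = 0.0597) and Ptpn11 by 0.42 ± 0.12 (adjusted p = 0.0407).

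Klf4, Irs2 and Tsc2 are given here as values only, since their levels were known when the limit on the arrays was drawn. They belong to the insulin signaling list, so its count of called members and its median include them. Irs2, the second major insulin receptor substrate, was at 9.38 and 10.42 in DW16 mice 8 and 9, at 9.86 in EW16 mouse 4 and between 8.13 and 8.50 in EW16 mice 5 to 8, against 9.77 to 10.53 on chow. Tsc2, an inhibitor of mTOR signaling, was at 8.72, 8.70 and 8.93 in the first 3 mice and between 7.53 and 7.69 in EW16 mice 5 to 8, against 8.60 to 9.15 on chow. EW16 mice 5 to 8 were thus below the chow mice for both genes, and the other Western mice used were within the chow range except DW16 mouse 8 for Irs2. In the 10 arrays below the limit the mean difference from chow was -1.67 for Irs2 and -2.28 for Tsc2. For the transcription factor Klf4, the brightest probe set lay between 13.13 and 13.40 in EW16 mice 5 to 8, between 12.35 and 12.73 in the other 3 Western mice and between 12.40 and 12.98 on chow, and a second probe set differed by -1.06, and by -0.33 without EW16 mice 5 to 8.

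The called members of the cytokine list were lower, and the called gene of the interferon list was higher. Ccl11, the chemokine eotaxin that attracts eosinophils, lay between 9.49 and 11.12 (median 9.88) on Western diet and between 10.98 and 11.78 (median 11.46) on chow. The difference was -1.27 ± 0.20 (SE, adjusted p = 0.00293), and -0.69 without EW16 mice 5 to 8 (adjusted p = 0.0793). Saa3, an acute phase protein of adipose tissue, fell by 1.14 ± 0.21 (SE, adjusted p = 0.00717), and Relb, a subunit of NF-kB, fell by 0.50 ± 0.09 (adjusted p = 0.00667). Saa3 and Relb differed by -0.79 and -0.33 without EW16 mice 5 to 8 and were not called. These were the 3 called of 25 measured members of the NF-kB, cytokine and chemokine list, whose median was -0.24 with all 7 arrays and -0.03 without EW16 mice 5 to 8. Tnf differed by 0.26 ± 0.15 (SE), Il6 by -0.42 ± 0.15 and Ccl2 by -0.36 ± 0.12, none of them past the threshold.

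Rsad2, the antiviral protein viperin, was between 11.89 and 12.79 (median 12.39) on Western diet and between 11.03 and 11.80 (median 11.41) on chow. Its groups did not overlap, and the increase was 0.82 ± 0.11 (SE, adjusted p = 0.0011), and 0.65 without EW16 mice 5 to 8 (adjusted p = 0.0378). It was the 1 called member of 20 measured in the interferon list, in which Ifit3 differed by 0.77 ± 0.18 (SE, adjusted p = 0.0198) and Usp18 by 0.64 ± 0.16 (adjusted p = 0.0247). These differences were 0.56 and 0.22 without EW16 mice 5 to 8. The other probe sets of Rsad2 differed by 0.46 and 0.06. Ifngr1, a chain of the interferon gamma receptor, rose by 1.05 ± 0.18 (SE, adjusted p = 0.00419), with a difference of 0.61 without EW16 mice 5 to 8 (adjusted p = 0.126). Adgre4, a receptor of macrophages, rose by 1.04 ± 0.20 (SE, adjusted p = 0.00768), with a difference of 0.46 without EW16 mice 5 to 8 (adjusted p = 0.207). Its other probe set differed by 0.86 and was not called. None of 19 macrophage markers was called by brightest probe set, and the mean over them ranged from 9.03 to 9.64 on Western diet and from 8.58 to 9.72 on chow.

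One transcript of antibody-producing cells was lower on Western diet. Igk, the immunoglobulin kappa light chain, lay between 5.35 and 6.12 in the Western mice and between 6.26 and 7.40 in the chow mice, with no overlap and a difference of -1.08 ± 0.16 (SE, adjusted p = 0.00191), and -0.95 without EW16 mice 5 to 8 (adjusted p = 0.0714). Jchain, which joins secreted antibodies, differed by -1.36 ± 0.31 (SE, adjusted p = 0.0189) and the heavy chain Ighm by -1.20 ± 0.32 (adjusted p = 0.0322). The other 3 probe sets of Igk, all dimmer, differed by 0.05 to 0.23. Igk was the 1 called of 11 measured B and plasma cell markers, whose mean level ranged from 5.90 to 6.63 on Western diet and from 6.38 to 7.12 on chow. Fewer cells of a type and less RNA per cell cannot be told apart in these samples.

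Several further genes had large differences. Eid3, an inhibitor of EP300-dependent transcription, was lower in every Western than in any chow mouse, with levels of 6.47 to 7.14 (median 7.03) on Western diet and of 7.92 to 8.95 (median 8.27) on chow. The difference was -1.42 ± 0.12 (SE, adjusted p = 3.51e-05), and -1.54 without EW16 mice 5 to 8 (adjusted p = 0.00196). Chordc1, a partner of the chaperone HSP90, lay between 11.27 and 11.85 on Western diet and between 10.46 and 10.92 on chow, with an increase of 0.95 ± 0.09 (SE, adjusted p = 8.35e-05) and of 0.79 without EW16 mice 5 to 8 (adjusted p = 0.00459). It was the 1 called member of 16 measured heat shock and chaperonin genes, whose median was -0.04. Hspa4l, a chaperone of the HSP110 family, rose by 1.06 ± 0.19 (SE, adjusted p = 0.00651) for one probe set and differed by 0.06 for its brightest one, which stood for it in the list. Among the 30 named genes with the largest differences, only Abcg1, Chordc1 and Eid3 were also called without EW16 mice 5 to 8.

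The remaining large increases were Cap1, an actin regulator (1.38), Dpysl2, a cytoskeletal protein (1.11), and Tmem38b, an ion channel of the endoplasmic reticulum (0.97). Other probe sets differed by 0.61 for Cap1, -0.08 for Dpysl2 and 0.06 to 0.44 for Tmem38b, and none of them was called. The difference of Dpysl2 was 0.37 without EW16 mice 5 to 8 and that of Cap1 was 0.78, neither called, whereas in EW16 mice 5 to 8 alone Cap1 was higher than chow by 1.99. In the 8-week mice Cap1 was also called, with a difference of 0.93 ± 0.18 (SE, adjusted p = 0.00971). The remaining large decreases were Ccn5, a secreted growth regulator (-1.94), Nfix, a transcription factor (-1.31), Lrmda (-1.30), Cdkn1c, an imprinted inhibitor of cell division (-1.28), Pth1r, the receptor for parathyroid hormone (-1.25), Clcf1, a cytokine of the interleukin-6 family (-1.20), Bmyc (-1.17), B3galt2, a galactosyltransferase (-1.13), and Oscp1 (-1.11). Nfix was -0.60 and Bmyc was -0.73 without EW16 mice 5 to 8. Cdkn1c was also called in the 8-week mice, with a difference of -0.88 ± 0.16 (SE, adjusted p = 0.00853). A second probe set of Clcf1 fell by 1.12 (adjusted p = 0.00314), and another differed by -0.09.

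The DW8 and DC8 mice, 5 and 7 D mice fed for 8 weeks, shared no array with the 17 mice and were not involved in the limit. In them 415 probe sets were called higher (0.921% of all) and 70 lower (0.155%). Of the 508 probe sets called at 16 weeks, 29 were also called at 8 weeks, which is 5.71% of the 16-week calls and 5.98% of the 485 8-week calls, against 1.08% of all probe sets called at 8 weeks. They stood for 20 genes, and all 29 had the same direction, 14 higher and 15 lower. Of the 508, 433 (85.2%) had the same sign at 8 weeks, against 56.8% of all probe sets. For those called higher it was 81.9%, against 51.5% of all probe sets with a positive 16-week difference. For those called lower it was 86.6%, against 64.8% of all with a negative one. The median 8-week difference was 0.22 for those called higher at 16 weeks and -0.24 for those called lower. The count of 8-week calls varied from 140 without DW8 mouse 3 to 1165 without DC8 mouse 1. It was 240 and 151 without DW8 mice 1 and 2 and 234, 156, 187, 260 and 207 without DC8 mice 2, 4, 5, 6 and 7.

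Abcg1 and Cyp1a1 separated the diets at 8 weeks. Abcg1 was at 11.18 or more in the DW8 mice and between 9.51 and 10.75 in the DC8 mice, without overlap, and rose by 1.55 ± 0.20 (SE, adjusted p = 0.00162). Cyp1a1 was between 7.09 and 9.25 in the DW8 mice and between 10.04 and 11.85 in the DC8 mice, again without overlap, and fell by 2.55 ± 0.35 (SE, adjusted p = 0.00198). Gramd1b rose by 1.26 ± 0.21 (SE, adjusted p = 0.00494) and Abca1 by 0.50, so that 3 of 15 measured members of the LXR list passed the test at 8 weeks, all higher. Of all 18193 genes, 97 were called higher and 48 lower at 8 weeks. Gclm fell by 0.46 ± 0.09 (SE, adjusted p = 0.00934), and Hmox1 differed by -1.28 ± 0.27 (adjusted p = 0.0174). Srxn1 overlapped between the DW8 mice (10.83 to 11.85) and the DC8 mice (10.45 to 11.62), with a mean level 1.03-fold higher in the DW8 mice. Its other probe sets differed by -0.45 to -0.24 and were not called. Pth1r fell by 1.43 ± 0.23 (SE, adjusted p = 0.0042) at 8 weeks.

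**Figure D4:**
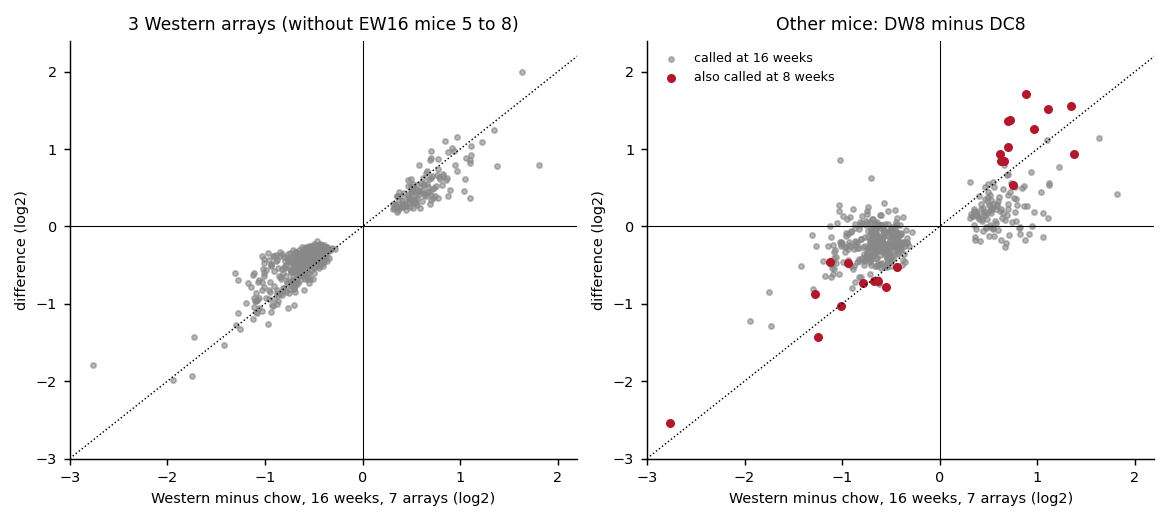
Log2 difference Western minus chow of probe sets among the 508 called with the 7 Western arrays (horizontal axes). The vertical axes give the difference with 3 Western arrays and the same chow mice (left) and DW8 minus DC8 in other mice (right). Of the 508, the 45 without a gene symbol and the 7 with several were not drawn. The dotted line marks equal differences. The left panel shares its chow and 3 of its Western mice with the horizontal axis. On the right, those of the 29 probe sets also called at 8 weeks that are drawn lie in the same direction in both.

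Among the other genes called in both sets, Kng1, kininogen, fell by 1.01 ± 0.14 (SE) at 16 weeks, with levels of 4.72 to 5.49 against 5.66 to 6.45, and fell by 1.03 at 8 weeks. Usp34, a deubiquitinase, rose by 0.70 ± 0.12 (SE) and by 1.36 at 8 weeks, and it stayed past the threshold without EW16 mice 5 to 8 (difference 0.97, adjusted p = 0.00718). Tnrc6b, a protein of microRNA silencing, rose by 0.72 and by 1.37 at 8 weeks, with a 16-week difference of 0.36 without EW16 mice 5 to 8 (adjusted p = 0.0705). Zbtb20, a transcription factor, rose by 0.66 and 0.85, and Klf7 by 0.62 and 0.94. Vtn, vitronectin, fell by 0.63 and by 0.71 at 8 weeks, and Slc38a10, an amino acid transporter, fell by 0.68 and by 0.70. Other probe sets of these genes often differed less at 16 weeks. Those of Usp34 gave 0.33 and -0.59, those of Tnrc6b -0.32 and -0.09, the 3 of Klf7 -0.08 to 0.19 and the 8 of Zbtb20 -0.60 to 0.26. The other probe set of Kng1 gave 0.14, and 0.006 at 8 weeks. For Slc38a10 they ran from -0.78 (adjusted p = 0.00204) to 0.03, and the other one of Vtn gave -0.36. Malat1, a nuclear non-coding RNA, and Son, a splicing protein, depended on the probe set. Malat1 rose by 0.88 ± 0.14 (SE, adjusted p = 0.00295) for one of 7 probe sets, while 3 others that rose by 2.15 to 2.89 at 8 weeks differed by -0.38 to 0.26 at 16 weeks and by 1.47 to 1.95 without EW16 mice 5 to 8. Another differed by 1.00 (adjusted p = 0.0274), and by 0.26 without these mice. Son rose by 0.63 for one probe set, and the other 6 differed by -0.58 to -0.04.

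Eid3, Chordc1, Rsad2 and Irs3 separated the diets at 16 weeks and were not called at 8 weeks. Their 8-week differences were -0.52 ± 0.20 (SE, adjusted p = 0.153) for Eid3, -0.00 ± 0.12 (adjusted p = 0.999) for Chordc1, -0.09 ± 0.11 (adjusted p = 0.732) for Rsad2 and -0.10 for Irs3. Whether these effects differ between the times was not tested, since the 16-week mice combined both genotypes.

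In the lists, where each gene stood by its brightest probe set, fatty acid oxidation, branched-chain amino acid breakdown and the TCA cycle, glucose uptake and glycolysis, thermogenic genes, endoplasmic reticulum chaperones, immediate early genes, proliferation, extracellular matrix, the circadian clock and splicing factors held no called gene. Sdhd, a subunit of succinate dehydrogenase, was the 1 called of 25 measured genes of oxidative phosphorylation, with a decrease of 0.70 ± 0.11 (SE, adjusted p = 0.00241), and Pth1r was the 1 called of 16 genes of glucocorticoid and lipolytic hormone signaling. In the glucose list, whose median was -0.35 with all 7 arrays and -0.09 without EW16 mice 5 to 8, the transporter Slc2a1 differed by -0.59 ± 0.14 (SE, adjusted p = 0.0224) for its brightest probe set, Pgam1 by -0.43 and the glycogen branching enzyme Gbe1 by -0.95. A dimmer probe set of Slc2a1 fell by 0.74 ± 0.09 (SE, adjusted p = 0.00088), with a difference of -0.81 without EW16 mice 5 to 8, and another differed by -0.64 (adjusted p = 0.0133). The insulin-responsive transporter Slc2a4 differed by -0.02 ± 0.17 (SE). Among the clock genes, Nfil3 differed by -0.78 ± 0.17 (SE, adjusted p = 0.013), Cry2 by 0.59 and Nr1d1 by -0.83, against -0.26, 0.21 and -1.49 without EW16 mice 5 to 8. Ucp1, the uncoupling protein of brown fat, was between 6.48 and 9.97 on Western diet and between 5.65 and 8.57 on chow, and the difference of 1.45 ± 0.57 (SE, adjusted p = 0.121) did not pass the test.

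Other genes of the lists had a called probe set that was not their brightest one and so did not count in the lists; they were named after their values were seen. Cd36, a fatty acid transporter of the adipocyte list, rose by 0.59 (adjusted p = 0.00938). Klf6, an immediate early gene, rose by 0.44 (adjusted p = 0.00241) and Sfpq, a splicing factor, by 0.47 (adjusted p = 0.00466). Ptgs2, the inducible cyclooxygenase, fell by 1.06 (adjusted p = 0.00295), and Cxcl12, a chemokine of stromal cells, fell by 0.87 (adjusted p = 0.00304). Their brightest probe sets had adjusted p of 0.475, 0.0184, 0.501, 0.139 and 0.153, in this order. The differences of the called probe sets were 0.24, 0.35, 0.53, -0.92 and -0.54 without EW16 mice 5 to 8.

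Marker levels of other cell types moved with EW16 mice 5 to 8. The mean over 15 mesothelial markers was between 6.54 and 6.74 in these 4 mice, between 7.23 and 7.91 in the other 3 Western mice and between 6.52 and 8.15 on chow. The mean over 11 muscle markers was between 6.93 and 7.38, between 7.55 and 7.69 and between 7.49 and 8.18, respectively. None of these 26 markers was called with the 7 arrays. The skeletal actin Acta1 differed by -1.12 ± 0.23 (SE, adjusted p = 0.0119), the smooth muscle proteins Tagln by -0.99 and Myh11 by -0.54, and the mesothelial genes Upk3b by -0.80, Wt1 by -0.75 and Cldn15 by -0.45. The control genes moved with the same mice, Actb by -0.47 ± 0.11 (SE), Rplp0 by -0.53 ± 0.13 and Hprt by -0.29 ± 0.12, against -0.12, -0.12 and -0.01 without EW16 mice 5 to 8. The part of these markers in the differences of single genes was not tested. By brightest probe set, one stromal marker was called, Ccn5, and no marker of macrophages, lipid-associated macrophages, dendritic cells, T and NK cells, granulocytes, endothelium, ovary, oviduct and uterus, red blood cells or nerve. A dimmer probe set of the nerve marker Mbp, myelin basic protein, fell by 0.55 (adjusted p = 0.00938).

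**Figure D5:**
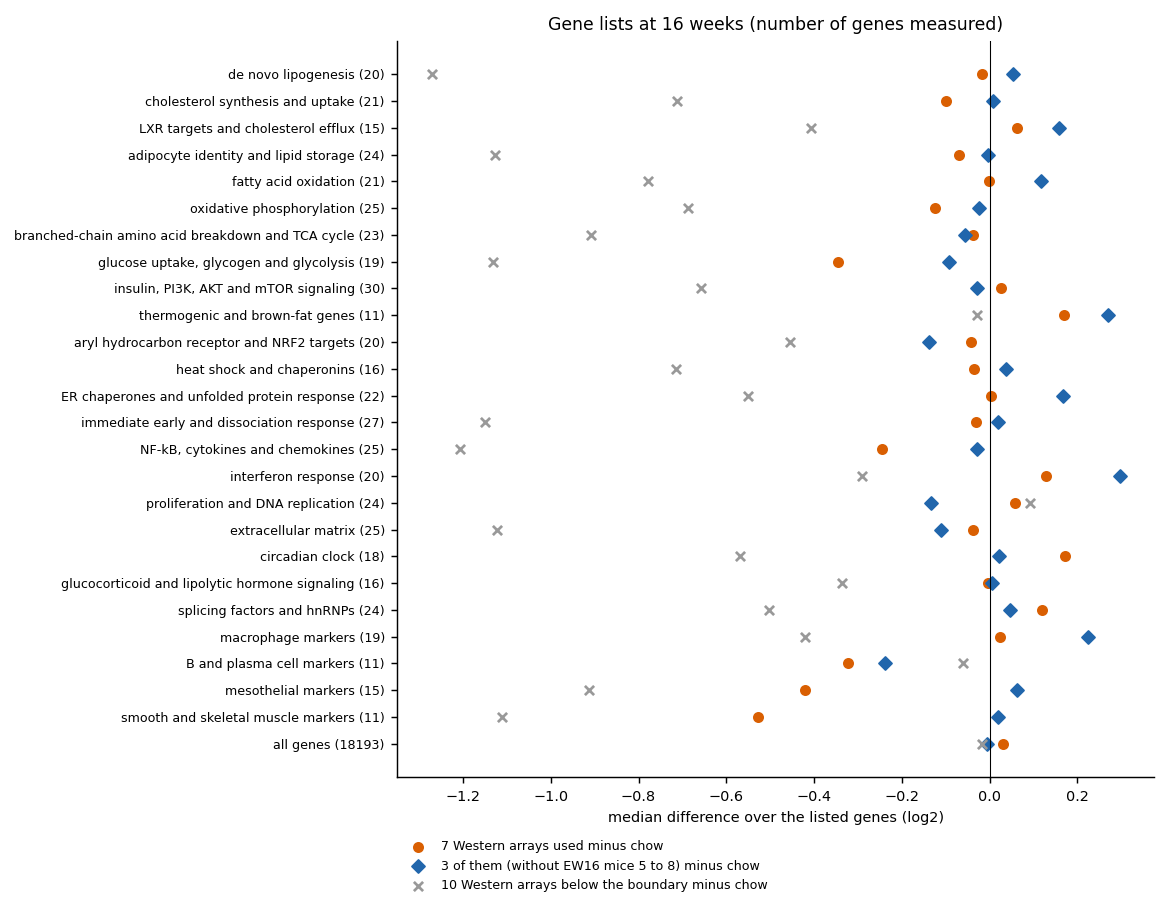
Median log2 difference from the 10 chow arrays (horizontal axis) over the measured genes of each list (vertical axis, number of genes in brackets) for the 7 Western arrays used, for the 3 of them left without EW16 mice 5 to 8, and for the 10 Western arrays below the limit. All comparisons share the chow mice; de novo lipogenesis was at -0.02, 0.05 and -1.27, respectively.

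The 10 Western arrays below the limit are set beside these values without a test, since they share the chow mice and were separated by their own signal range. Their median difference from chow was -1.27 for de novo lipogenesis, -1.13 for adipocyte identity and lipid storage, -1.21 for the NF-kB list and -0.66 for insulin signaling, against -0.02, -0.07, -0.24 and 0.02 in the 7 arrays. Their difference from chow was 0.95 for Abcg1, 0.85 for Gramd1b, -1.63 for Eid3, -2.09 for Hmox1 and -3.29 for Cyp1a1. For Lpcat3 it was -0.50, and for Chordc1 0.06. With no array left out, 9051 probe sets were called, 3442 higher and 5609 lower.

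The genotypes were also fitted separately. In E mice, 5 Western against 5 chow, 3160 probe sets were called, 1383 higher and 1777 lower, and none when EW16 mice 5 to 8 were left out, with 5208 at an unadjusted p under 0.05 and EW16 mouse 4 then the only Western mouse, assumed to vary like the chow mice. Leaving out EW16 mouse 4 gave 9344 calls, leaving out one of EW16 mice 5 to 8 gave 567 to 809, and leaving out one of EC16 mice 1 to 4 gave 706 to 1178. In D mice, 2 Western against 5 chow, LIMMA called none, with 3465 probe sets at an unadjusted p under 0.05. The test of whether the diet effect differed between genotypes called none at 0.01 and 2 probe sets at 0.05, with 8388 at an unadjusted p under 0.05. Of the 5 E mice on Western diet used, 4 were EW16 mice 5 to 8, so that genotype and the mice standing apart cannot be told apart here.

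The leading genes are given by genotype. Abcg1 differed by 1.41 in E mice and 1.24 in D mice, Gramd1b by 0.80 and 1.25, Irs3 by 0.76 and 1.19, and Chordc1 by 1.00 and 0.85. Among the decreases, Eid3 differed by -1.39 in E mice and -1.48 in D mice, Hmox1 by -2.02 and -1.23, Pth1r by -1.11 and -1.51 and Cyp1a1 by -3.47 and -1.51. The adjusted p of the difference between genotypes was 0.0999 for Cyp1a1 and 0.19 for Hmox1, and these tests rest on 2 D mice on Western diet.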

How the data were processed

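Adipocyte RNA of 45 mice was hybridised to Affymetrix MG430-2.0 arrays, 1 array a mouse. The authors deposited log2 values per probe set, normalized with RMA; the number of mice, not a read depth, limits precision. Groups came from the sample titles, and replicates were separate mice; the EW8 mice entered no comparison. No 2 columns were identical. Genes came from GEO's platform annotation, in which 34945 of 45037 probe sets had 1 symbol, 932 several and 9160 none.

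LIMMA (limma 3.58.1, R 4.3.3; lmFit and eBayes) was fitted to all probe sets without a filter, on diet with genotype as a covariate. P-values were adjusted by Benjamini-Hochberg over all probe sets and called at 0.01. Differences are Western minus chow on the log2 scale with the moderated SE. Genes were named by rule: of the called probe sets with 1 symbol, the 15 with the most positive and the 15 with the most negative difference; up to 3 members of each list described singly, by smallest p; genes called in both sets of mice; targeted and control genes; and Klf4, Irs2 and Tsc2. Other members of the lists, such as Fasn or Tnf, were named for their known role after their values were seen. In lists each gene stood by its brightest probe set, averaged over the 45 arrays. Members and lists were chosen with earlier results of these data known. Promoters were read from RefSeq. Mice with the same replicate number were compared by the correlation of their deviations from the group means. It ran from -0.16 to 0.22 over 10 pairs, 4 of them above 0.1. Mice with different numbers were not compared, so these values cannot decide whether the numbers paired the mice. Alternatives covered covariates, normalization, centring, filters, SAM with 100 permutations, weights and single mice. The fit was tested on simulated data.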

Additional observations from a re-analysis of the deposited data

Results flagged for a closer look

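A level far from the others of its group, by Dixon's criterion, was found 18 times among 162 groups of mice (81 probe sets, each in the 7 Western and the 10 chow arrays); chance gives about 1 in 20. DW16 mouse 9 accounted for 9 of the 18. It was lowest of the Western mice for Hpgd at 9.32, Cavin1 at 6.04, Hspa4l at 7.58, Sc5d at 11.83 and Lep at 9.42. It was highest of them for Hmox1 at 10.36, Cdkn1c at 9.97, Fads1 at 11.13 and Apoe at 7.57. For Hpgd, Cavin1, Hspa4l, Hmox1 and Cdkn1c the level lay toward the chow mice, and their next Western mouse was at 10.73, 7.33, 8.48, 9.62 and 9.14.

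EC16 mouse 5 was lowest of the chow mice for Oscp1 at 7.73, Fads2 at 6.81, Rbp4 at 13.46, Sdhd at 10.97 and Gbe1 at 9.26. DC16 mouse 4, which stood apart on the second principal component, was highest for Gclm at 11.80 and lowest for Usp34 at 7.03 and Actb at 14.03. DC16 mouse 3 was lowest for Upk3b, a mesothelial gene, at 7.69. No probe set had an adjusted p under 0.01 in the LIMMA test of a diet effect that differs between genotypes (8388 at an unadjusted p under 0.05).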

How the results depend on the processing

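Against 508 calls, array weights gave 5448, a spread shared over all 45 arrays 1550, an adjusted p under 0.05 3094, a minimum of 2-fold 62, SAM 2549, no array left out 9051 and a covariate for each array's SD 221. With EW16 mice 5 to 8 left out, 56 were called, with DC16 mouse 4 left out as well 95, and with EW16 mice 5 to 8 as the only Western arrays 7569; these 3 were chosen after seeing the data. Leaving out single mice gave 122 to 2370 calls, in E mice 567 to 9344 against 3160, and at 8 weeks 140 to 1165 against 485. With the replicate block, LIMMA called 0 (4524 at an unadjusted p under 0.05), in E mice 0 (2550) and at 8 weeks 22. The labels name no pairing of the mice. Without EW16 mice 5 to 8, 0 were called in E mice. No genotype covariate, quantile normalization, median centring, a trended robust fit and the brighter probe sets alone gave 365 to 738.

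Of 1484 values of the 45 named probe sets called, 1079 stayed past the threshold in the same direction, 404 did not pass and 1 changed sign, Lpcat3 at -0.079 with no array left out; the block ended all 45 calls. Among these settings, an adjusted p under 0.05 and a minimum of 2-fold reuse the main fit, so their outcome was fixed by it. All 45 pass at the looser threshold for that reason. With single mice left out, 20 of the 45 were called each time. Of genes not called, no array left out gave Fads2 -0.018, Fads1 -0.34, Sc5d -0.082, Usp18 -0.35 and Cry2 -0.63. With EW16 mice 5 to 8 left out, Wt1 was 0.061 and Insr -0.0081, and Insr was -0.077 without DC16 mouse 4 too. Irs1 (-0.01) was 0.099 without genotype, 0.0072 after quantile normalization, 0.059 with array weights, 0.065 with the array SD, 0.26 with the block, 0.35 in EW16 mice 5 to 8 alone and -0.095 to 0.14 with single mice left out. Apoe (-0.01) was 0.039 after quantile normalization, 0.088 with the array SD, 0.077 with the block, 0.14 in EW16 mice 5 to 8 alone and -0.078 to 0.11 with single mice left out. The cause of these changes was not tested.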
